A study of Mus musculus with 4 samples.

Results

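Osteoclasts, the multinucleated cells that resorb bone, were followed in sections of the fetal mouse head through 9 genes: Acp5, Mmp9, Ctsk, Ocstamp, Dcstamp, Tnfrsf11a, Tnfsf11, Tnfrsf11b and Calcr. They were taken by symbol from the 19465 genes listed, and all 9 were detected in each capture area. In 4 of 4 areas, 8 of the 9 were higher in the spots richest in the bone matrix gene Ibsp than in the rest of the tissue, and these 8 were called higher, against 27.8% of all genes tested. The fitted folds ranged from 11.8 for Dcstamp and 8.76 for Acp5 to 2.32 for Tnfrsf11a, which encodes the receptor RANK. Calcr, the calcitonin receptor, was the exception, with a log2 fold change of -0.08. None of the 9 was called different between E14.5 and E15.5 (0% of all genes were).

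Formalin-fixed, paraffin-embedded coronal sections of whole wild-type heads, with no treatment or transgene in the labels, were placed on Visium arrays at embryonic day 14.5 (E14.5) or 15.5 (E15.5). A Visium spot records the RNA of a small disc of tissue that can hold several cells, and a unique molecular identifier (UMI) marks 1 captured molecule. There were 4 capture areas, each 1 library, 2 per stage: replicate 1 of a stage lay in an area with 1 section, and replicates 2, 3 and 4 shared an area with 3 sections. The labels do not say which of those sections is which replicate, and the letters A, B and C used below follow their position. How many embryos the areas hold is not given in the labels, so p-values measure the spread between these 4 areas.

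The areas held 6357 tissue spots. Totals ranged from 15438992 UMIs in the E14.5 replicate 1 area to 109127953 in the E14.5 area of replicates 2, 3 and 4, and the median UMIs per spot from 6752 to 64051 in the replicate 1 areas of E14.5 and E15.5. The E14.5 section A was also shallow, with a median of 10037.5 UMIs. Areas shared between 540 and 1388 spot barcodes pairwise, since barcodes name array positions. The tissue on the array differed between areas: in spots outside the Ibsp-rich class, lens crystallin genes summed to 1.85 on the counts-per-million (CPM) scale in the E14.5 replicate 1 area and to between 978 and 4256 in the other 3.

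Osteoclasts form when precursors of the macrophage lineage fuse. The ligand RANKL (Tnfsf11), made mainly by cells of the osteoblast and chondrocyte lineages, binds RANK (Tnfrsf11a) on the precursor, and the secreted decoy receptor osteoprotegerin (Tnfrsf11b) takes up the ligand before it reaches RANK. RANK signalling runs through Traf6, NF-kB and AP-1 to Nfatc1, the transcription factor that turns on the genes of resorption. Mature cells then secrete acid and enzymes onto bone, among them the acid phosphatase TRAP (Acp5), the collagenase cathepsin K (Ctsk) and the gelatinase Mmp9.

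The sequence upstream of the start of 4 of the genes is shown because these genes were higher in the same spots and because osteoclast transcription factors are known to act close to such starts. Promoters were taken from a table of RefSeq sequences on GRCm38.p6, in which 5 of the 9 genes were matched, namely Acp5, Calcr, Ctsk, Tnfrsf11a and Tnfsf11. Those of Mmp9, Ocstamp, Dcstamp and Tnfrsf11b were not analysed here. Each window ran 240 bases on the strand of the gene and ended 10 bases before the start, and no annotated exon overlapped it. Motifs searched on both strands were TGANTCA for AP-1, GAGGAA for PU.1, GGAAA for NFAT, TCANGTGA for the M-box bound by Mitf, and TGTGGT for Runx factors. The letters GAGGAA followed by A would also match GGAAA. Matches are in capitals. The most downstream of 3 Acp5 windows, at chr9:22130609-22130848 on the minus strand, held the M-box 91 bases before the start and NFAT letters at 117 and 37 bases. It is the only Acp5 window with the M-box and the only one shown. The remaining Acp5 windows held NFAT letters alone, at 167 bases before the start in one and at 41 in the other. The Ctsk window at chr3:95498960-95499199 on the plus strand held PU.1 letters at 233 and 58 bases before the start. The Tnfsf11 window at chr14:78308054-78308293 on the minus strand held NFAT letters at 117 bases, and the Tnfrsf11a window at chr1:105780473-105780712 on the plus strand held none of the 5.
Acp5: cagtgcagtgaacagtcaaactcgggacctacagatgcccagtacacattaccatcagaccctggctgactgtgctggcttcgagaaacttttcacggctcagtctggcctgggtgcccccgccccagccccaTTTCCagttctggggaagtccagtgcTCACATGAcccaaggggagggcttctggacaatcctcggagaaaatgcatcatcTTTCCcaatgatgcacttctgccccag
Ctsk: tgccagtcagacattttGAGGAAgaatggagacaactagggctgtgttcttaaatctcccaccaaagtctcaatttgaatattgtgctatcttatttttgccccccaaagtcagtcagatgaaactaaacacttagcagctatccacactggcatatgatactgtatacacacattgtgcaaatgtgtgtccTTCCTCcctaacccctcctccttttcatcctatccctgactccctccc
Tnfsf11: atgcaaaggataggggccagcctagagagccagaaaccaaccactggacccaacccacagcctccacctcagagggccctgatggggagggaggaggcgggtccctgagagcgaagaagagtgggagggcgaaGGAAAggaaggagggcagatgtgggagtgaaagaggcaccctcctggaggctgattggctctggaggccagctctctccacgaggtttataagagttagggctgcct
Tnfrsf11a: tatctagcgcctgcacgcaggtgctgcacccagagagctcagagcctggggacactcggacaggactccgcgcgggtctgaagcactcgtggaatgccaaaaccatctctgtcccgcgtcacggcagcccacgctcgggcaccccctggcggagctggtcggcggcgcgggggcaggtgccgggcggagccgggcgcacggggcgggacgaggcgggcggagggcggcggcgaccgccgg
Of 32851 promoter windows of this length, 3.27% held the M-box letters, 6.58% those of AP-1, 13.6% those of Runx factors, 22.3% those of PU.1 and 54.1% those of NFAT. These shares are per window, while Acp5 was searched in 3 windows. A match is a description of the sequence, and the NFAT and PU.1 letters in particular are common.

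In the GRCm38 annotation, Acp5 spans chr9:22126727-22135711, Mmp9 chr2:164940780-164955850, Ctsk chr3:95499256-95509362, Ocstamp chr2:165393760-165400405 and Dcstamp chr15:39745930-39760938. Tnfsf11 spans chr14:78277445-78308043, Tnfrsf11a chr1:105780718-105847981, Tnfrsf11b chr15:54250619-54278484 and Calcr chr6:3685680-3764714. The assay reads these genes through probes, whose positions are not given in the sources used here.

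Ibsp encodes bone sialoprotein, which osteoblasts lay down in mineralizing matrix. Ibsp-rich spots were the 10% of tissue spots of an area with the highest share of UMIs in Ibsp and at least 3 Ibsp UMIs. This gave 95 spots in the E14.5 replicate 1 area, 221 in the E14.5 area of replicates 2, 3 and 4, 99 in the E15.5 replicate 1 area and 195 in the E15.5 area of replicates 2, 3 and 4. None of the 9 genes was used in the choice. In the E14.5 replicate 1 area the Ibsp-rich spots were the shallower class, with a median of 4840 UMIs against 6958 in the other spots, and in the other 3 areas they were the deeper. Levels are in CPM, the UMIs of a gene over all UMIs of the spots pooled, with areas in the order E14.5 replicate 1, E14.5 replicates 2, 3 and 4, E15.5 replicate 1, and E15.5 replicates 2, 3 and 4. CPM has no length term, and each gene is captured by its own probes, so levels are compared between places for a gene and not between genes. In a spot, fewer cells of a type and less RNA per cell cannot be told apart.

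**Figure D1:**
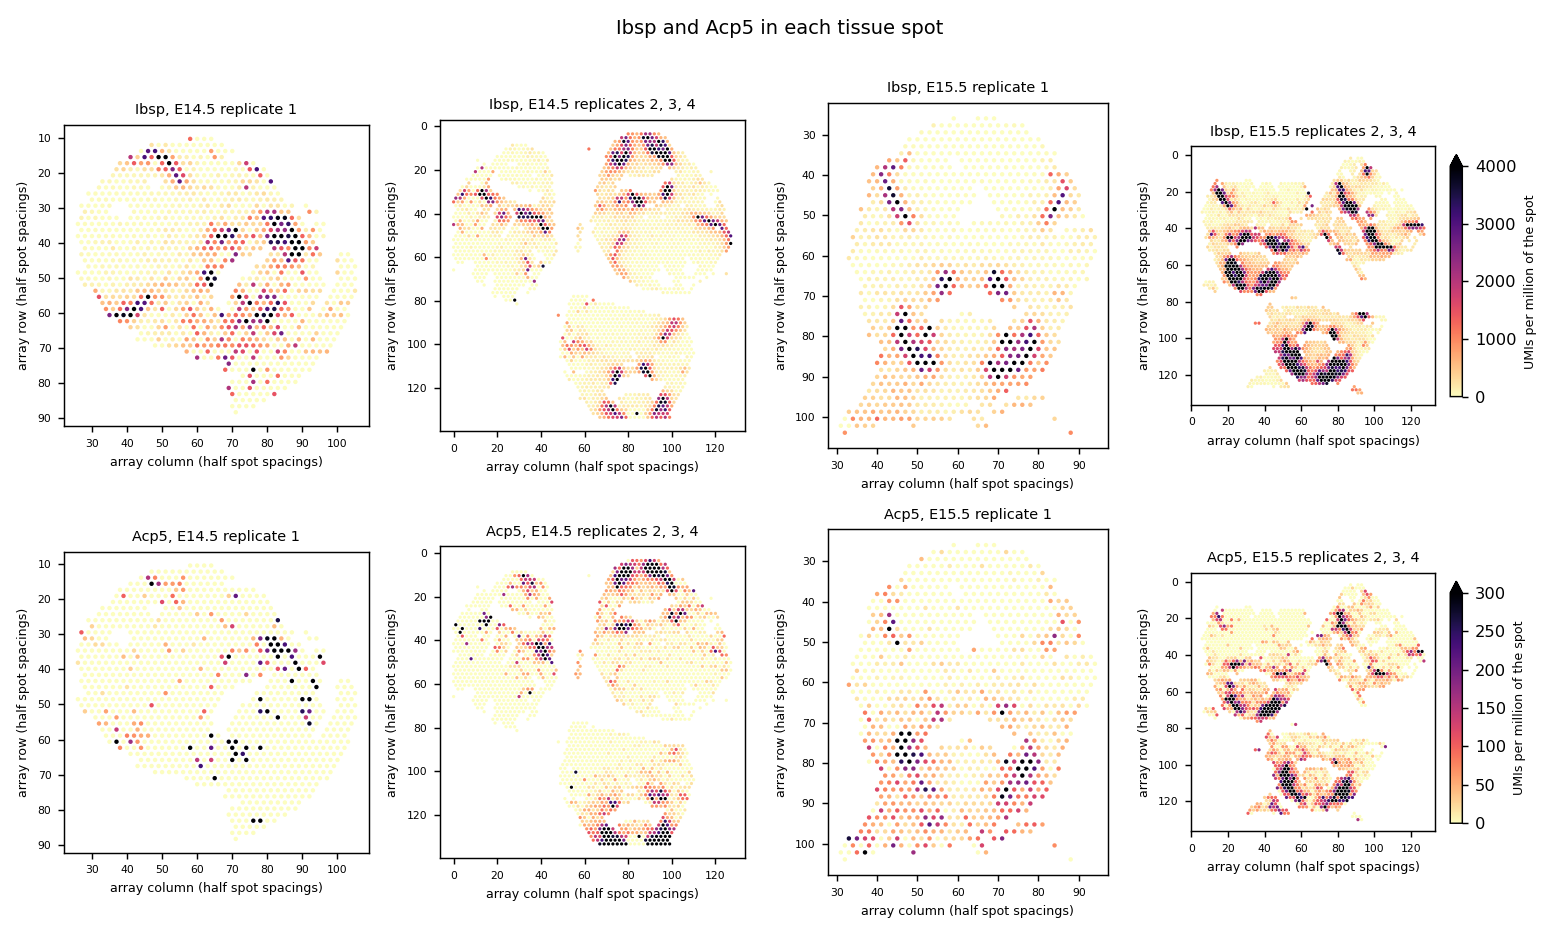
Maps of Ibsp (top row) and Acp5 (bottom row) in each tissue spot of the 4 capture areas, with array column and row numbers on the axes and colour for CPM in the spot, on a separate scale for each gene. Most dark Acp5 spots lie on or beside dark Ibsp spots, but not all do, and not every dark Ibsp spot is dark for Acp5.

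The enzymes of resorption were read first. Acp5, with 16042 UMIs in 2819 spots, stood at 129, 287, 160 and 255 CPM in the Ibsp-rich spots of the 4 areas and at 9.66, 30.9, 22.5 and 48.9 CPM in the other spots. Every Ibsp-rich value was above every other value, so the classes did not overlap. The log2 fold change was 3.13 ± 0.18 (SE, n = 4 areas; edgeR quasi-likelihood test with the area as a block, Benjamini-Hochberg adjusted p = 2.98e-05). Mmp9, with 27920 UMIs, stood at 189, 431, 237 and 551 CPM against 23.2, 51.4, 31.3 and 94.7, again without overlap, for a log2 fold change of 3.05 ± 0.09 (adjusted p = 5.88e-06). Ctsk, the most widely detected of the 9 with a UMI in 4875 spots, stood at 296, 665, 381 and 593 CPM against 70.1, 128, 105 and 197. Its classes did not overlap either, but its log2 fold change of 2.14 ± 0.12 (adjusted p = 2.54e-05) was smaller than those of Acp5 and Mmp9. Both replicate 1 areas were lower than both areas of replicates 2, 3 and 4 for all 3 enzymes, in Ibsp-rich and in other spots. The replicate 1 areas were processed with Space Ranger 1.3.1 and the others with 2.0.0; its part in these levels was not tested.

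Ocstamp and Dcstamp encode membrane proteins that precursors need to fuse, and both were sparse. Ocstamp, with 701 UMIs in 471 spots, stood at 5.99, 13.2, 6.68 and 12.1 CPM in Ibsp-rich spots and at 0.274, 1.39, 0.644 and 2.16 CPM elsewhere. Dcstamp, with 470 UMIs in 333 spots, stood at 3.59, 9.28, 6.97 and 8.77 CPM against 0.548, 0.712, 0.462 and 1.26. Neither gene overlapped between the classes, and the log2 fold changes were 3.22 ± 0.22 for Ocstamp (adjusted p = 5.52e-05) and 3.56 ± 0.24 for Dcstamp (adjusted p = 4.87e-05). In the E14.5 replicate 1 area these values rest on 5 and 3 UMIs in Ibsp-rich spots, so that the exact 95% Poisson interval of Dcstamp there ran from 0.741 to 10.5 CPM (counting error only). Among the 13934 genes tested, Dcstamp had the 13th largest log2 fold change, Ocstamp the 28th, Acp5 the 35th and Mmp9 the 39th.

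RANK, its ligand and its decoy were each higher in Ibsp-rich spots, by different amounts. Tnfsf11, the ligand, stood at 16.8, 40.1, 36.4 and 51.8 CPM against 3.77, 6.25, 4.74 and 10.8, with a log2 fold change of 2.76 ± 0.14 (adjusted p = 1.88e-05). Tnfrsf11b, the decoy, stood at 11.97, 24.6, 18.4 and 27.9 CPM against 4.86, 6.59, 6.14 and 10.0, with a log2 fold change of 1.81 ± 0.12 (adjusted p = 4.87e-05). The classes of the ligand were well apart, while the lowest Ibsp-rich value of the decoy was just above its highest value elsewhere. Tnfrsf11a, the receptor, stood at 19.2, 10.6, 9.79 and 10.1 CPM against 6.98, 4.24, 4.87 and 6.69, also without overlap, with a log2 fold change of 1.21 ± 0.16 (adjusted p = 0.000809). It was the only one of these 3 whose highest Ibsp-rich value lay in the shallow E14.5 replicate 1 area, where it rests on 16 UMIs.

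Calcr, the receptor through which calcitonin stops resorption and a known gene of mature osteoclasts, was detected in 545 spots with 677 UMIs. It stood at 3.59, 1.32, 2.08 and 2.73 CPM in Ibsp-rich spots and at 1.44, 2.65, 2.28 and 2.56 CPM elsewhere. The classes overlapped, and the order differed between areas. The log2 fold change was -0.08 ± 0.30 (adjusted p = 0.851).

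In all, 8 of 9 genes were called higher at an adjusted p under 0.1, against 27.8% of all 13934 genes tested (54.4% called, 26.6% lower). All 8 were separate between the classes in the sense that each area in Ibsp-rich spots exceeded each area elsewhere, which held for 6.06% of all genes tested. The median log2 fold change of the 9 was 2.76, and that of all genes 0.00. Scaling by library size instead of TMM moved the median of all genes to -0.17 and the share of higher among the called genes from 51.0% to 26.5%, and the same 8 were called higher. They were also called with each area left out in turn, without section A, and against direct neighbours alone. Sections gave the same picture: each of the 8 was higher in Ibsp-rich spots in 8 of 8 sections, Acp5 by 4.77-fold to 14.0-fold and Tnfrsf11a by 1.32-fold to 3.11-fold, and Calcr in 4 of 8.

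**Figure D2:**
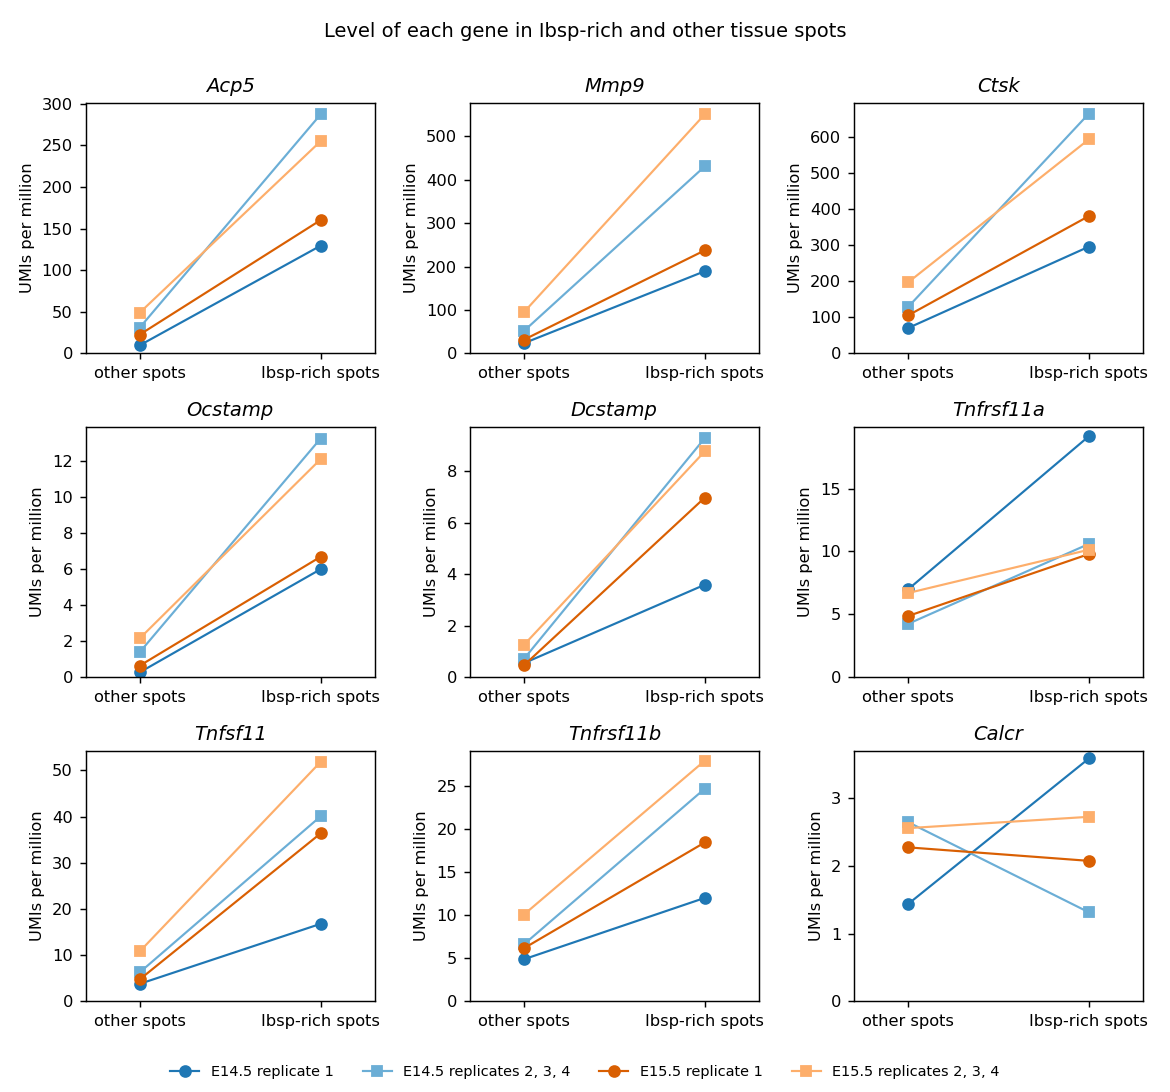
Level of each gene in CPM in other tissue spots and in Ibsp-rich spots, with 1 line per capture area (blue E14.5, orange E15.5; circles replicate 1, squares replicates 2, 3 and 4) and axes that start at 0. All lines of 8 genes go up, Acp5 from at most 48.9 to at least 129, and those of Calcr cross.

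Levels were then read by distance, counted in spots from the nearest Ibsp-rich spot. Acp5 averaged 208 ± 75.2 CPM (SD, n = 4 areas) in Ibsp-rich spots, 83.0 ± 47.6 in their direct neighbours, 33.8 ± 16.1 a step farther, 23.4 ± 7.39 at the third step and 12.7 ± 7.18 beyond it. Mmp9 went from 352 ± 169 to 155 ± 119 in direct neighbours and 22.0 ± 6.36 beyond the third step. For 5 genes, Acp5, Mmp9, Ctsk, Dcstamp and Tnfsf11, each step to the third was lower than the one before in 4 of 4 areas. This held for 0 of the 9 genes when the top 5% of spots were taken as Ibsp-rich. In the E14.5 replicate 1 area the Dcstamp values rest on 3, 5, 2 and 0 UMIs from the Ibsp-rich spots to the third step. Its order there is imprecise. Ctsk kept the higher share of its level far away, at 18.2 ± 5.45% of its Ibsp-rich level beyond the third step, against 6.03 ± 2.96% for Acp5 and 7.02 ± 1.84% for Tnfsf11. Tnfrsf11a was split across the first step: the direct neighbours stood at 20.04 and 10.3 CPM in the E14.5 replicate 1 area and the E15.5 area of replicates 2, 3 and 4, slightly above the Ibsp-rich spots, and at 7.12 and 6.76 CPM in the other 2 areas, below them. It kept 38.1 ± 13.2% beyond the third step. Calcr averaged 2.43 ± 0.967 CPM in Ibsp-rich spots and 2.46 ± 0.880 beyond the third step. These are descriptions with no test, and neighbouring spots of a section are not independent.

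**Figure D3:**
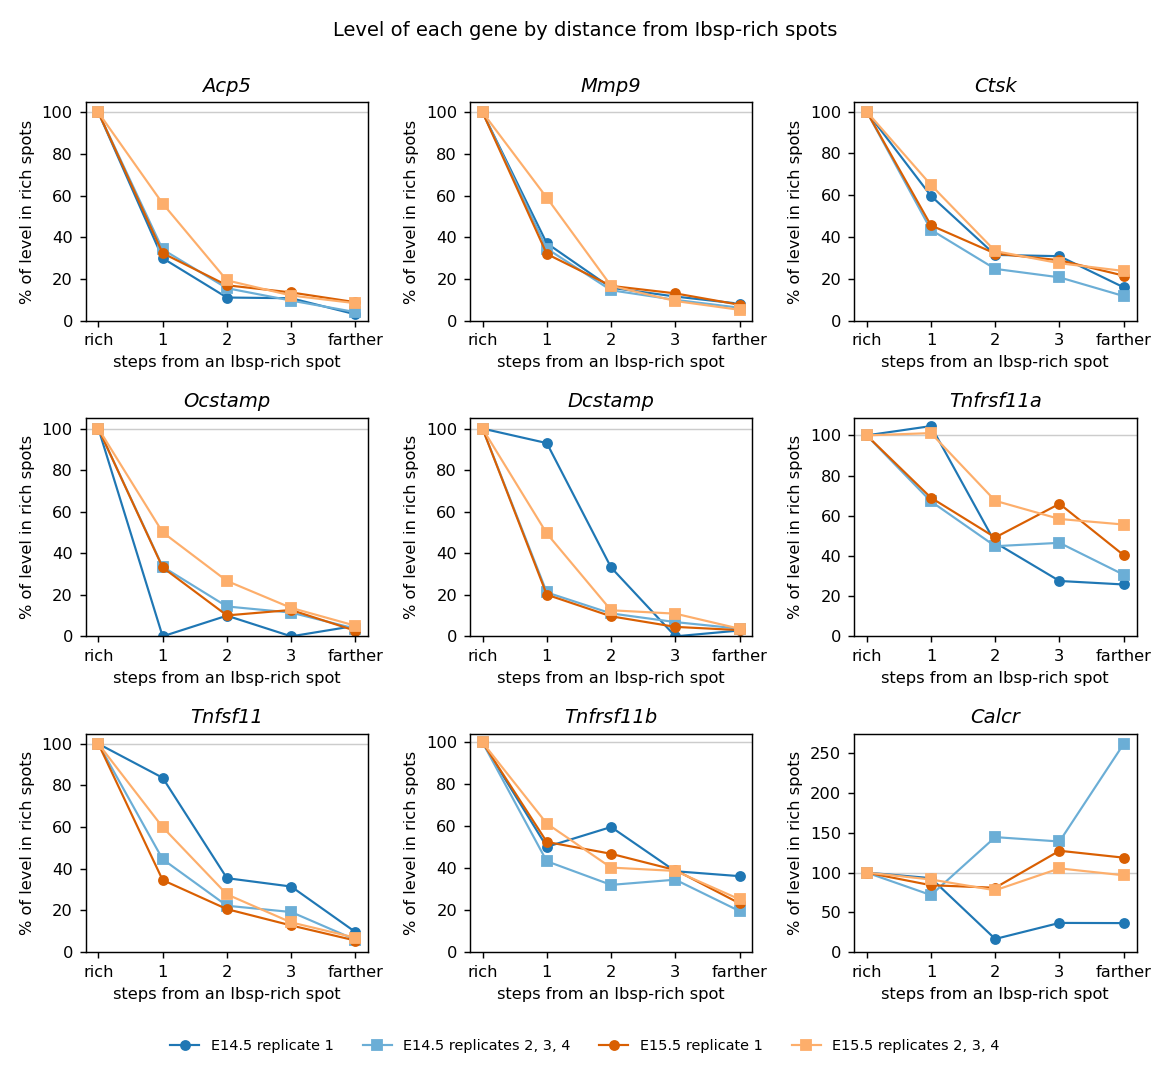
Level of each gene as a percent of its level in Ibsp-rich spots (vertical axis) in those spots, at 1, 2 and 3 steps from them and farther (horizontal axis), with 1 line per capture area (blue E14.5, orange E15.5; circles replicate 1, squares replicates 2, 3 and 4). Acp5 ends at 6.03 ± 2.96% beyond the third step, Tnfrsf11a at 38.1 ± 13.2%, and the Calcr lines run at or above their start in some areas.

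Ibsp-rich spots and their direct neighbours made up 23.4% of all tissue spots. They held between 62.4% and 76.8% of the Acp5 UMIs of an area, 72.7% to 79.9% of those of Dcstamp, 50.7% to 70.1% of those of Tnfsf11, 23.5% to 50.1% of those of Tnfrsf11b, 34.3% to 44.2% of those of Tnfrsf11a and 11.4% to 33.3% of those of Calcr. Of the 80 spots with the most Acp5 UMIs, 20 per area, 63 were Ibsp-rich and 12 were direct neighbours. The same counts were 61 and 15 for Mmp9 and 57 and 13 for Ctsk, and the other 6 genes are too sparse in the shallow E14.5 replicate 1 area for such a ranking. The ratio of ligand to decoy UMIs was 1.40, 1.63, 1.98 and 1.86 in the Ibsp-rich spots of the 4 areas and 0.480, 0.612, 0.528 and 0.565 beyond the second step. The ratio was higher in Ibsp-rich spots than beyond the second step in each area, but not higher than in direct neighbours, where it was 2.33, 1.67, 1.301 and 1.82 and so above the Ibsp-rich ratio in both E14.5 areas. In the E14.5 replicate 1 area it rests on 14 and 10 UMIs in Ibsp-rich spots and 21 and 9 next to them. It compares the same probe pair between places and says nothing of which transcript was the more abundant.

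Within the Ibsp-rich class, Acp5 was uneven. It had no UMI in 57 of 95 Ibsp-rich spots of the E14.5 replicate 1 area and in 32 of 221, 4 of 99 and 9 of 195 of the other 3 areas, while single Ibsp-rich spots reached 185 UMIs. The Ibsp-rich spots were split into 4 equal groups by Ibsp share, from high to low. Acp5 then stood at 196, 283, 457 and 205 CPM in the E14.5 area of replicates 2, 3 and 4. In the E15.5 area of replicates 2, 3 and 4 it stood at 149, 248, 329 and 298 CPM. In both of these areas Acp5 was highest in the third group and lowest in the first, the group with the highest Ibsp share. In the replicate 1 areas the second group was the highest, with 158 CPM at E14.5 and 202 CPM at E15.5. Ctsk and Mmp9 peaked in the same group as Acp5 in each area. Tnfrsf11b, in contrast, had its highest value in the group with the highest Ibsp share in 3 of the 4 areas. In the E14.5 area of replicates 2, 3 and 4 it went from 35.8 CPM in that group to 16.5 CPM in the group with the lowest.

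Co-detection was counted spot by spot. Of 471 spots with an Ocstamp UMI, 91.5% also had an Acp5 UMI, and of 333 with a Dcstamp UMI, 93.1% did, while Acp5 was detected in 2819 of 6357 spots in all. Both fusion genes were found in 146 spots, of which 67.8% were Ibsp-rich and 89.7% were Ibsp-rich or next to such a spot. Shares of spots with a UMI depend on depth, so each spot was also thinned to 5000 UMIs. Acp5 was then found in 24.4%, 54.4%, 46.5% and 53.8% of the Ibsp-rich spots of the 4 areas and in 3.81%, 10.2%, 10.3% and 15.6% of the other spots, although 50 of the 95 Ibsp-rich spots of the E14.5 replicate 1 area were too shallow to be kept. In the E15.5 area of replicates 2, 3 and 4, Acp5 was found in 53.8% of Ibsp-rich spots (95.4% before thinning), in 15.6% of other spots (54.9%) and in 2.04% of the spots richest in neuron markers (10.2%), where osteoclasts are not expected; the median depths were 51460 UMIs in Ibsp-rich and 22770.5 in neuron-rich spots. Thinned shares for Dcstamp in that area were 6.67%, 0.287% and 0%. Those for Mmp9 were 72.3%, 22.3% and 14.3%, and those for Ctsk 86.7%, 51.9% and 12.2%. These enzymes were thus also found in neuron-rich spots, more often than Acp5. Tnfrsf11a went the other way in that area, with 2.56% of Ibsp-rich and 3.38% of other spots after thinning (40% and 24.4% before). In the other 3 areas its thinned share was higher in Ibsp-rich spots. Thinning left out 12 of the other spots of the E15.5 area of replicates 2, 3 and 4 and none of the Ibsp-rich.

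Where else the 9 genes were found was read from the 5% of spots of each area with the highest share of UMIs in a marker list. Ibsp-rich spots had the highest mean for 6 genes: Acp5, Mmp9, Ctsk, Ocstamp, Dcstamp and Tnfsf11. Spots rich in the hypertrophic cartilage genes Col10a1 and Ihh came next for all 6, with 128 ± 102 CPM for Acp5 and 296 ± 267 CPM for Mmp9 (SD, n = 4 areas), with the Mmp9 value at 179 without the E15.5 area of replicates 2, 3 and 4. Between 24.5% and 43.1% of these spots were themselves Ibsp-rich. The list summed to only 48.8, 56.6, 42.4 and 168 CPM there in the 4 areas. Whether the chosen spots are hypertrophic cartilage was not tested. Acp5 was also found in surface epidermis, at 51.0, 99.4, 88.5 and 86.1 CPM in the 4 areas, where at most 3.6% of spots were Ibsp-rich, which is above its level over other spots in each area. Ctsk averaged 258 ± 43.5 CPM in spots rich in fibroblast and periosteum genes. For none of these 6 genes was the difference between the first and the next region beyond the larger of their SDs.

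The receptor, the decoy and Calcr had another order. Tnfrsf11a averaged 14.3 ± 11.0 CPM in surface epidermis, 13.2 ± 5.28 in macrophage-rich spots, 12.6 ± 8.65 in neutrophil-rich spots and 12.4 ± 4.50 in Ibsp-rich spots, and these neighbours in the order did not differ beyond their spread. The first place rests on the E14.5 replicate 1 area, with 30.6 CPM from 6 UMIs: without it, surface epidermis averaged 8.93 ± 2.06 CPM (n = 3 areas), below macrophage-rich spots at 10.6 ± 1.70 and Ibsp-rich spots at 10.2 ± 0.404. Neuron-rich spots were the lowest, at 1.88 ± 0.675. Tnfrsf11b averaged 21.5 ± 4.79 CPM in cartilage, at 14.5 CPM or more in each area, and 20.7 ± 7.03 in Ibsp-rich spots, which overlapped. Without the E14.5 replicate 1 area the order turned, with 20.9 ± 5.66 CPM in cartilage and 23.6 ± 4.81 in Ibsp-rich spots. Calcr averaged 4.82 ± 1.72 CPM in neuron-rich spots, 4.20 ± 2.29 in spots chosen by the choroid plexus list and 2.43 ± 0.967 in Ibsp-rich spots. The choroid plexus list reached only 148 and 141 CPM in the chosen spots of the replicate 1 areas, so those spots are not choroid plexus there. Without the E14.5 area of replicates 2, 3 and 4, spots chosen by that list came first for Calcr, at 5.23 CPM against 5.004 in neuron-rich spots. This order is no evidence for choroid plexus. The area left out had the highest list sum, 21985 CPM, and Calcr stood at only 1.11 CPM in its chosen spots. In the E15.5 area of replicates 2, 3 and 4 the list reached 3226 CPM, and 24.5% of the chosen spots were Ibsp-rich. With the top 10% in place of 5%, Tnfrsf11b was highest in Ibsp-rich spots and Calcr in skeletal muscle, while the first region stayed as given for the other 7.

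**Figure D4:**
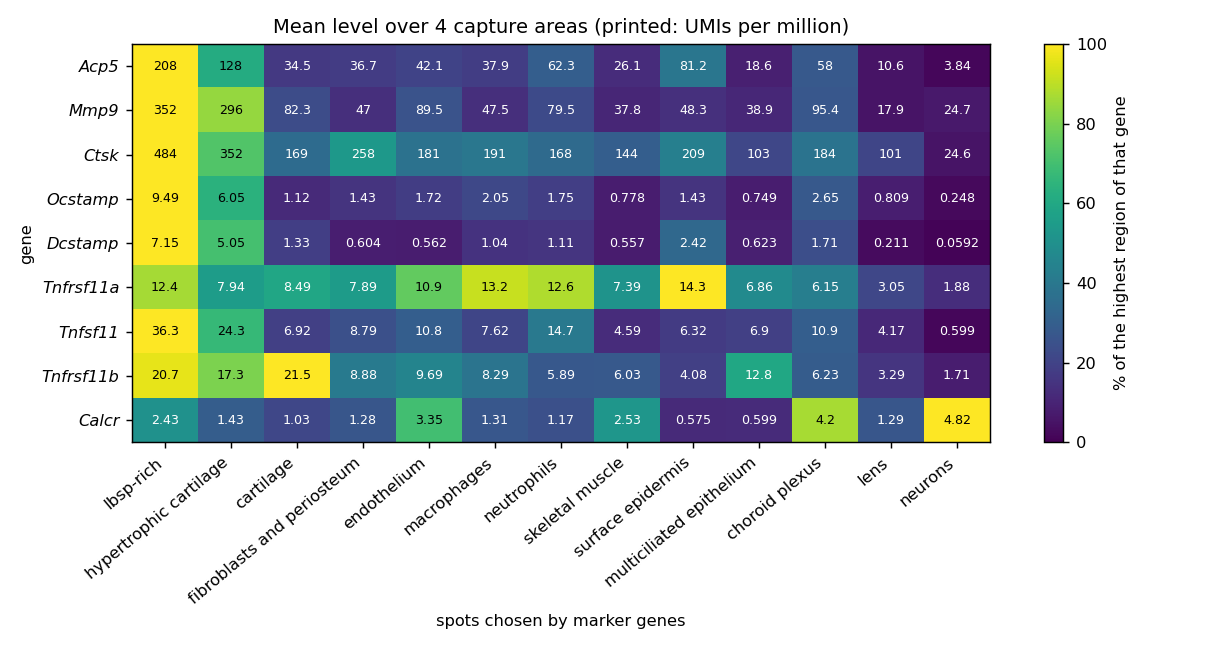
Mean level over 4 capture areas (CPM, printed in each cell) of each gene (rows) in Ibsp-rich spots and in spots chosen by marker lists (columns), coloured as a percent of the highest region of that gene. The first column is the brightest for 6 genes, while Tnfrsf11a is highest in surface epidermis at 14.3, Tnfrsf11b in cartilage at 21.5 and Calcr in neurons at 4.82. Each of these last 3 leads is lost when 1 area is left out, that of Tnfrsf11a (8.93) and Tnfrsf11b without E14.5 replicate 1.

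Markers of other blood cells that carry some of these genes were read beside the result. The 5 macrophage markers (C1qa, C1qb, C1qc, Mrc1, Adgre1) summed to 196, 174, 140 and 176 CPM in Ibsp-rich spots and to 153, 160, 163 and 225 CPM elsewhere, and 5, 4, 0 and 1 of the 5 were higher in Ibsp-rich spots. The 6 neutrophil markers summed to 25.1, 10.2, 29.2 and 22.8 CPM against 10.5, 10.2, 21.3 and 40.5, with 3, 3, 4 and 0 of the 6 higher, and Ngp, Mpo and Elane at 0 in the Ibsp-rich spots of the E14.5 replicate 1 area. Neither list was higher in Ibsp-rich spots in all 4 areas. The lists of 2 other cell types were. The 5 endothelial markers summed to 378, 294, 379 and 359 CPM against 245, 223, 305 and 332, with 5, 5, 5 and 4 of the 5 higher. The 5 fibroblast and periosteum markers summed to 1639, 1213, 1195 and 1554 CPM against 735, 754, 887 and 1497, with 5, 5, 5 and 3 of the 5 higher. The part of these cells in the levels of the 8 genes was not tested. Across spots, smoothed over direct neighbours and averaged over the areas, Acp5 correlated with the macrophage gene C1qa at r = 0.16 and with Ibsp at r = 0.65.

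The genes most like each of the 9 in their map were found by the same correlation over spots among 13731 genes, as a description without a p, since neighbouring spots share RNA, library and depth. For Acp5 they were Mmp9 (mean r = 0.80), Ctsk (0.72), Dcstamp (0.66), Car3 (0.65) and Col22a1 (0.65). Those of Mmp9 were Acp5, Alpl (0.70), Panx3 (0.70), Sp7 (0.69) and Ibsp (0.69), of which Alpl, Sp7 and Ibsp are osteoblast genes. Ctsk went instead with the matrix genes Sparc (0.79), Col1a1 (0.77), Pcolce (0.77), Col5a2 (0.76) and Col1a2 (0.75). Dcstamp was closest to Mmp9 (0.66), Acp5 (0.66), Mmp13 (0.55), Ctsk (0.54) and Atp6v0d2 (0.53), a subunit of the osteoclast proton pump, and Ocstamp to Acp5 (0.57), Mmp9 (0.57), Col13a1 (0.48), Mmp13 (0.48) and Spp1 (0.48). The r of Ocstamp and Acp5 ran from 0.01 in the E14.5 replicate 1 area, with 9 Ocstamp UMIs, to 0.81. Tnfsf11 went with Mmp9 (0.67), Alpl (0.63), Runx2 (0.63), Insc (0.61) and Panx3 (0.61), and Tnfrsf11b with Runx2 (0.50), Col11a1 (0.47), Col11a2 (0.46), Col12a1 (0.46) and Clec11a (0.45). For Tnfrsf11a (Anxa2, Copz2, Lmna, Emp1, Col6a3) no mean r was above 0.36, and for Calcr (Vwa5b1, Trpc5, Ecel1, Rasgrf2, Ccdc85a) none was above 0.27, which in counts this sparse is no finding.

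The wider pathway was read from 4 gene lists. Of 17 genes of RANK signalling and osteoclast transcription, 11 were called higher in Ibsp-rich spots and 2 lower, against 27.8% higher and 26.6% lower of all genes tested, with a median log2 fold change of 0.62. Spi1, which encodes the myeloid factor PU.1, stood at 19.2, 26.0, 18.0 and 27.3 CPM against 8.35, 9.28, 7.51 and 12.8, for a log2 fold change of 1.45 ± 0.11 (edgeR, adjusted p = 6.81e-05). Fosl2 (1.10) and Jdp2 (1.15), of the AP-1 family, had the next lowest p. Nfatc1 had 1.39 ± 0.18. Traf6, the adaptor of RANK, was lower at -0.32 ± 0.11 (adjusted p = 0.0400), as was Bcl6 at -0.30 ± 0.11 (adjusted p = 0.0637), while Map3k7, Mitf, Irf8 and Prdm1 were not called. Of 13 genes of acid secretion and attachment, 8 were called higher and 2 lower, against the same 27.8% and 26.6%, with a median of 0.99. Atp6v0d2 had 3.26 ± 0.20, and Siglec15, a receptor of fusing osteoclasts, 3.04 ± 0.27, both of the size seen for Acp5. Tcirg1, another pump subunit, had 0.99 and the integrin gene Itgav 0.84. Snx10 (-0.34) and Ostm1 (-0.41), both needed for acid secretion, were the 2 lower, and Src, Plekhm1 and Clcn7 were not called.

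Of 9 genes of precursors and their growth factors, 6 were called higher and 0 lower, again against 27.8% and 26.6% of all genes, with a median of 0.64: Cd68 had 1.34 ± 0.12, Csf1, the growth factor of the lineage, 1.29 ± 0.18, the adaptor Tyrobp 0.87 ± 0.13, and Csf1r, the receptor for Csf1, 0.64 ± 0.11. Cx3cr1, Il34 and Trem2 were not called. Of 12 osteoblast genes, 11 were measured and all 11 were called higher (27.8% of all genes), with a median of 3.40 and with Phex at 3.17, Bglap at 3.79, Dmp1 at 4.00 and Col1a1 at 2.67. These are genes of the cells that lay down the matrix by which the spots were chosen. Without TMM, Rela and Fcer1g were no longer called and Src was called lower, and Cx3cr1, Irf8, Map3k7, Plekhm1, Prdm1 and Trem2, called in neither fit, turned negative.

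**Figure D5:**
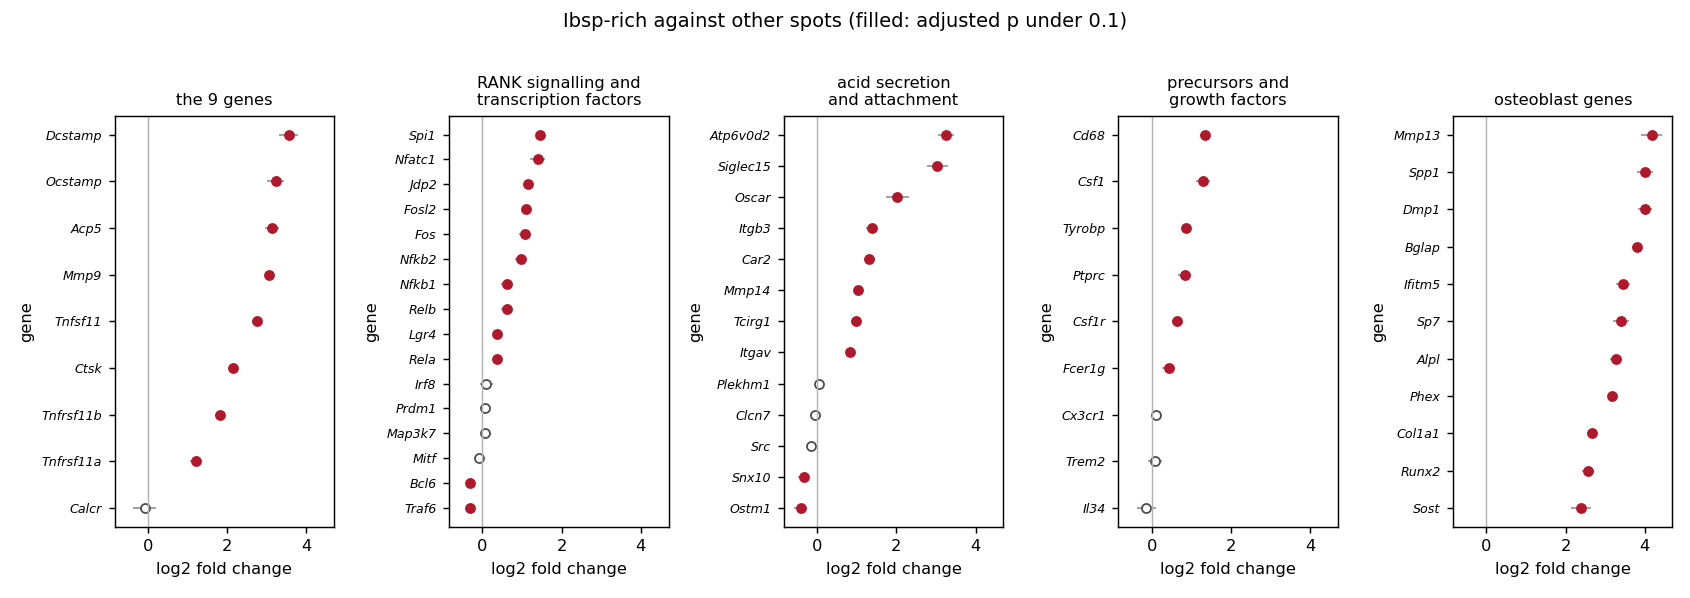
Log2 fold change of Ibsp-rich against other spots (horizontal axis, bars ± SE from edgeR, n = 4 areas) for the 9 genes and for the genes reported from 4 pathway lists, with filled points for an adjusted p under 0.1. Atp6v0d2 and Siglec15 lie with Acp5 and Dcstamp at about 3 or more, and the osteoblast genes lie highest as a list, with a median of 3.40.

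The study compared E14.5 with E15.5, around the fusion of the palate, in palate spots selected by hand. It also used bulk RNA sequencing of dissected palate and in situ hybridization. The same stages were compared here over all tissue of the head, which does not repeat the comparison of the study. Acp5 stood at 16.1 and 63.0 CPM in the E14.5 areas and at 36.3 and 72.6 CPM in the E15.5 areas. Tnfsf11 stood at 4.47 and 10.5 CPM at E14.5 and at 7.90 and 15.5 CPM at E15.5, and Mmp9 at 32.2 and 98.98 and at 51.9 and 147. For each of the 3, the E15.5 area was the higher for the same replicate label, but the stages overlapped. The log2 fold changes of E15.5 against E14.5 were 0.36 ± 0.60, 0.54 ± 0.50 and 0.51 ± 0.60 for Acp5, Tnfsf11 and Mmp9. They rest on single areas: with 1 area left out, Acp5 went from -0.32 without E14.5 replicate 1 to 1.734 without E14.5 replicates 2, 3 and 4, Mmp9 from -0.40 without E15.5 replicates 2, 3 and 4 to 1.61 without E14.5 replicates 2, 3 and 4, and Tnfsf11 from 0.0011 to 1.37 in the same 2 cases as Mmp9. None of the 9 was called (edgeR, lowest adjusted p = 0.799), nor was any of the 15609 genes tested (0% called; 930 had an unadjusted p under 0.05, and DESeq2 called 28). The fitted values of the 9 ran from -0.07 to 0.54, with standard errors between 0.36 and 0.73.

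Within the Ibsp-rich spots, Acp5 stood at 129 and 287 CPM at E14.5 and at 160 and 255 CPM at E15.5, with a log2 fold change of -0.03 ± 0.36 that ran from -0.48 to 0.72 with 1 area left out (without E14.5 replicate 1 and without E14.5 replicates 2, 3 and 4). Tnfrsf11a had -0.42 ± 0.42 (-0.11 and -0.91 in the same 2 cases) and Tnfsf11 0.48 ± 0.36 (0.13 and 1.43). None of the 9 was called (edgeR, adjusted p = 0.999982 for each), against 0.0224% of 13376 genes tested. The 3 genes called there, Fgf15, Atoh7 and Rax, were all lower at E15.5 and are known from retina and brain.

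Whether the contrast of Ibsp-rich and other spots differed between the stages was tested as an interaction. Acp5 was 13.4 and 9.29 times as high in Ibsp-rich as in other spots at E14.5 and 7.11 and 5.22 times at E15.5. Both E15.5 ratios were below both E14.5 ratios, also for Ctsk, with 4.22 and 5.18 against 3.62 and 3.02. Taken section by section, the Acp5 ratios overlapped: the lowest and highest were 6.01 and 14.0 in E14.5 sections and 4.77 and 7.12 in E15.5 sections. The interaction was -0.72 ± 0.20 for Acp5 on the log2 scale (edgeR, unadjusted p = 0.00413, adjusted p = 0.395) and -0.44 ± 0.17 for Ctsk (adjusted p = 0.550). None of the 9 was called, against 0.014% of 14313 genes tested, and 1149 genes had an unadjusted p under 0.05. The Acp5 interaction did pass the threshold under 5 alternatives, among them the fit without a filter on low counts (-0.74, adjusted p = 0.00305). No gene of the 4 pathway lists was called in any of the 3 stage comparisons.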

How the data were processed

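Visium libraries of formalin-fixed, paraffin-embedded head sections were processed by the authors with Space Ranger on mm10, per the labels, and the UMI counts per gene and spot were deposited unnormalized. Spots over tissue were kept, and 19 barcodes outside it were left out. UMIs were summed per capture area, or per area and spot class, since spots are not replicates, and tested with edgeR 4.0.16 in R 4.3.3 (TMM, filterByExpr, quasi-likelihood test, Benjamini-Hochberg over all genes, threshold 0.1), with the area as a block between spot classes. DESeq2 1.42.0 was an alternative. CPM was computed without TMM. Maps were compared by Pearson correlation of log2 of 1 plus UMIs per 10000, over a spot and its direct neighbours. From the pathway lists, the 4 genes with the lowest p and those against their list were named; Nfatc1 and the genes named as not called or as changing with the scaling were chosen after their values were seen, and 1 gene the rule names is counted in its list but not reported here. The members and lists were chosen with earlier results of these data known. Poisson intervals cover counting error only. On simulated counts, the tests recovered most planted changes, with a share of false calls above the nominal one. Each simulated gene had the same mean in all areas apart from depth and the planted changes, unlike the real areas. The simulation does not show whether the stage comparisons could find changes as small as those fitted for the members. Python 3.11.15, numpy 2.4.6, scipy 1.17.1 and pandas 2.3.3 were used.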

Additional observations from a re-analysis of the deposited data

Results flagged for a closer look

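Among the E15.5 sections, Tnfrsf11a in Ibsp-rich spots stood at 12.6 CPM in section C, apart from 9.28, 9.77 and 9.79 CPM in the other 3, with a gap of 0.845 of the range, just above the 95% critical value of Dixon's test. This was 1 of 54 checks of a highest or lowest section, and chance flags about 1 in 20 groups.

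Barcodes outside tissue, used in no comparison, also held UMIs of the 9 genes. In the E14.5 area of replicates 2, 3 and 4, 8 such barcodes held 36 UMIs of 6 of the genes, or 172 CPM against 389 CPM in tissue spots. In the E15.5 area of replicates 2, 3 and 4, 11 barcodes held 79 UMIs of 5 of the genes, or 224 CPM against 505 CPM. Why these barcodes hold them was not tested.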

How the results depend on the processing

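With 4 areas the counts of called genes moved widely while the calls of the 9 genes did not, apart from the interactions of Acp5 and Ctsk. All 8 members called between Ibsp-rich and other spots were called under every alternative that tested them; with at least 10 UMIs in every sum only 6 were tested. The number of genes called there went from 7581 to 3714 with no area block and to between 4918 and 7894 with an area left out, the lowest without the E14.5 area of replicates 2, 3 and 4. Between stages over all tissue, 0 genes became 28 with DESeq2 and 0 to 78 with an area left out (78 without the E15.5 replicate 1 area). Between stages within Ibsp-rich spots, 3 genes became 1 at a threshold of 0.05, 9 with DESeq2, 6 with at least 10 UMIs in every sum, 19 with no filter, 0 with the top 20% or the top 5% as Ibsp-rich, 5 without section A of E14.5 (an alternative chosen after seeing the data) and 6 to 31 with an area left out (31 without the E14.5 area of replicates 2, 3 and 4, 12 without the E15.5 replicate 1 area, 8 without the E15.5 area of replicates 2, 3 and 4). For the interaction, 2 genes became 1 at 0.05, with a fixed Ibsp level of 500 CPM or without TMM, 0 with at least 10 UMIs or the top 20%, 16 with DESeq2 (4163 genes had no adjusted p), 143 with the top 5%, 181 with spots chosen by Spp1, Ifitm5, Bglap and Dmp1, 502 with no filter, and 33 to 582 with an area left out (582 without the E14.5 area of replicates 2, 3 and 4, 189 without the E15.5 replicate 1 area, 96 without the E15.5 area of replicates 2, 3 and 4). The cause was not tested. With a lone area left in a stage, that area is assumed to vary like the others. The number of members lower at each step to the third in every area went from 5 to 0 with the top 5%. Acp5 passed the interaction threshold with no filter (-0.74, adjusted p = 0.00305), the replicate block (-0.76, 3.76e-07), the bone list spots (-0.72, 0.0867), without the E14.5 area of replicates 2, 3 and 4 (-1.03, 0.0656) and without the E15.5 replicate 1 area (-0.89, 0.0794), all by edgeR, and Ctsk with the replicate block (-0.46, 0.00144). Ibsp-rich spots were the highest region for 6 members, and for 6 to 7 with an area left out, an alternative chosen after seeing the data. The replicate block called 0 genes over all tissue, 18 within Ibsp-rich spots and 1923 for the interaction. Areas with the same replicate label deviated from the group means with a correlation of 0.20 over all tissue, -0.05 in Ibsp-rich spots and 0.44 for the log2 difference of Ibsp-rich and other spots, the quantity of the interaction. With only 2 pairs and no label that ties them, the label was not taken to pair the areas. Ocstamp, Dcstamp and Calcr in the E14.5 replicate 1 area rest on 5, 3 and 3 UMIs in Ibsp-rich spots, so their levels there are imprecise.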
